A study of Mus musculus with 3 samples.

Results

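The regions described here are peaks that the authors called in sequenced input DNA of the mouse pre-B cell line AH2 and that no peak of the DNA repair protein NBS1 overlapped. They are called input-only peaks below. Of the 11903 peaks of the AH2 input list, 1367 were left out by position: 461 on unplaced sequences, 494 on the sex chromosomes, 324 that started below 5 Mb of an autosome, 68 in a window of 4 Mb on chromosome 12 that holds the immunoglobulin heavy chain locus Igh, and 20 in one of 4 Mb on chromosome 6 that holds the kappa light chain locus Igk. Of the 10536 that were kept, 9303 shared not even 1 base with any interval of the AH2 NBS1 list, the R2K.Artm NBS1 list or the AH2 NBS1 list after subtraction. The other 1233 overlapped at least 1 of these lists and are called shared input peaks. The input-only peaks were thus chosen by measured values, the positions of the called peaks in all 4 lists, and not by their score or spacing. Width was no criterion either, but a wider peak has more bases that can overlap, so width is not independent of the choice.

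Chromatin of 2 cell lines, AH2 and R2K.Artm, both pre-B cells of the mouse transformed by v-Abl, was precipitated with a rabbit monoclonal antibody to NBS1 and sequenced, and input DNA was sequenced from AH2. The labels state neither genotype nor treatment for either line. There is 1 library in each of the 3 groups, so no value below has a replicate error and no test between groups was run. The depth of the libraries is unknown. Intervals given with shares are 95% Wilson intervals and those given with densities are exact 95% Poisson intervals. Both cover counting error only, and both treat peaks as independent, which close neighbours are not.

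NBS1 joins MRE11 and RAD50 in the complex that gathers at the ends of broken DNA, and in pre-B cells such ends arise when the RAG1/2 recombinase cuts antigen receptor genes. An input library is the DNA before precipitation. It serves as a control because sheared chromatin is not read evenly. Open chromatin, sequence present in more copies in the cells than in the reference, and gained chromosome segments are all known to give input peaks in general, and none of these was measured here. An interval called in input thus marks where reads piled up without the antibody. The peaks are named by position, since the gene table at hand is of another build than the authors' mm9.

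Most kept input peaks had no counterpart in the NBS1 lists. The rule of choice took 88.3% of them (interval 87.7 to 88.9%), a share that describes the choice and is no finding. The 1233 shared input peaks divided into 771 that overlapped both the AH2 and the R2K.Artm NBS1 list, 253 in AH2 NBS1 alone, 143 in R2K.Artm NBS1 alone, 57 in AH2 NBS1 and its subtracted list, 7 in the subtracted list alone and 2 in all 3. Peaks near the border of the rule differed by a few bases. The input-only peak nearest to an NBS1 peak lay on chromosome 8 at chr8:118071816-118071951, 13 bases from an R2K.Artm NBS1 peak. The next 4 were 14, 21, 26 and 27 bases from an AH2 NBS1 peak, at chr13:107911775-107911938, chr14:20429750-20429872, chr4:90059867-90059972 and chr1:195458955-195459036. Just outside the rule, the input peak at chr16:93992790-93993226 shared 2 bases with an AH2 NBS1 peak. Next came 11 bases shared at chr11:78945337-78945451 and 13 at chr2:181468172-181468266, both with an AH2 NBS1 peak. Then came 14 at chr1:63677043-63677301 and 16 at chr12:21970970-21971178, both with an R2K.Artm NBS1 peak and no AH2 NBS1 peak.

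Input-only peaks were mostly weak. The deposited score of a peak, which the authors' peak caller wrote and which starts at 50 in this list, had a median of 58.0 among input-only peaks (interval of the median 57.8 to 58.3), with the middle 50% from 53.2 to 67.5 and a highest value of 455. Of the 9303, 5309 scored under 60, 57.1% (56.1 to 58.1%). A score of at least 100 was reached by 409, 4.40% (4.00 to 4.83%), against 11.0% of all kept input peaks. Among the shared input peaks the median score was 121 (114.2 to 129), the highest was 3100, and 746 of 1233 reached 100, 60.5% (57.7 to 63.2%). A score of at least 300 was found in 2 input-only and 287 shared input peaks. The 2 kinds of input peak therefore overlapped in score at the low end and parted at the high end.

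Ranked by score and divided into 10 equal classes, kept input peaks lacked an NBS1 peak in 98.3% (97.3 to 98.9%) of the lowest class, 96.0% (94.7 to 97.0%) of the sixth and 91.2% (89.3 to 92.7%) of the eighth. The share was 81.5% (79.0 to 83.7%) in the ninth class, with scores of 78.0 to 105, and 32.5% (29.8 to 35.4%) in the highest. The step from the ninth to the highest class was larger than all steps before it together.

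**Figure D1:**
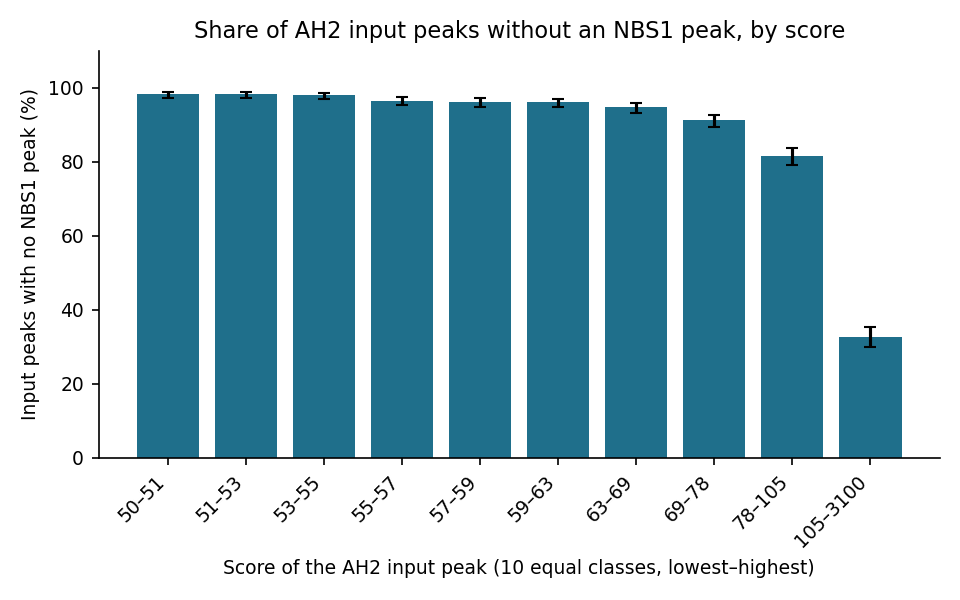
Percent of kept AH2 input peaks with no overlapping NBS1 peak (vertical axis) in 10 equal classes of the deposited input score (horizontal axis, lowest to highest score of each class). Bars are shares and whiskers 95% Wilson intervals. The share lies between 91.2% and 98.3% in the 8 lower classes and drops to 32.5% in the highest.

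The strongest input-only peaks were scattered over several chromosomes, and 7 of the first 10 had no NBS1 peak within 50 kb. This was not particular to them: over all input-only peaks, the middle 50% of that distance ran from 54.2 to 275 kb. The highest score, 455, belonged to chr1:12647497-12647964, a peak of 468 bp with the nearest AH2 NBS1 and R2K.Artm NBS1 peaks both 681 kb away. Next came chr8:20032340-20033067 with a score of 322, 728 bp wide and 105 kb from an NBS1 peak. The third, chr10:57693431-57695597 with 277, was also the widest of all 9303 at 2167 bp. It had an AH2 NBS1 peak 6.26 kb away and an R2K.Artm NBS1 peak 6.46 kb away.

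The fourth, chr10:84488721-84488839, was narrow at 119 bp, scored 274 and lay 358 kb from the nearest NBS1 peak. The fifth, chr13:119041549-119041811, scored 256 and lay 921 kb from one. Those at ranks 6 and 7, chr16:10886336-10886902 (score 251) and chr14:28533652-28533777 (score 248), were 88.2 kb and 112 kb from an NBS1 peak. The eighth, chr10:52248447-52249378 with 242, had an R2K.Artm NBS1 peak at 562 bases and the nearest AH2 NBS1 peak at 295 kb. The last of the top 10 were chr14:12418068-12418266 (score 235), 4.83 kb from an AH2 NBS1 peak, and chr8:84742899-84743098 (score 230), 54.9 kb from one. Within the top 10, widths ran from 119 to 2167 bp.

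The width of input-only peaks had a median of 134 bp (133 to 136 bp), with the middle 50% from 112 to 177 bp. The median of shared input peaks was 126 bp (123 to 129 bp), with the middle 50% from 91 to 178 bp. Peaks narrower than 100 bp made up 13.1% (12.4 to 13.8%) of input-only and 31.0% (28.5 to 33.6%) of shared input peaks, against 15.2% of all kept. Peaks wider than 250 bp, the average fragment length the labels give for the sonicated chromatin, made up 8.57% (8.02 to 9.15%) and 13.8% (11.98 to 15.8%), against 9.18% of all kept. This order of the wide peaks turned within score classes. At scores of at least 100 wide peaks were 36.7% (32.1 to 41.4%) of input-only and 19.4% (16.8 to 22.4%) of shared input peaks. At scores under 100 they were 7.27% (6.75 to 7.83%) and 5.13% (3.50 to 7.47%), with overlapping intervals.

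Width divided the strong input-only peaks differently from the weak ones. Among the 409 with a score of at least 100, 116 were narrower than 100 bp, 28.4% (24.2 to 32.9%), and 150 were wider than 250 bp. Among the 8894 weaker input-only peaks 12.4% (11.7 to 13.1%) were narrower than 100 bp and 647 were wider than 250 bp. The median width was 196 bp (170 to 216 bp) in the strong and 134 bp (133 to 135 bp) in the weak input-only peaks. In shared input peaks with a score of at least 100 it was 139 bp (130 to 146 bp), below that of the strong input-only peaks.

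At a score of at least 100, the share of input peaks with no NBS1 peak depended on width. It was 34.8% (29.9 to 40.1%) under 100 bp, 21.7% (18.04 to 25.9%) from 100 to under 200 bp, 52.2% (46.3 to 58.1%) from 200 to under 400 bp and 46.9% (38.6 to 55.5%) at 400 bp or more. At a score of at least 200 it was low in every width class, from 2.55% (1.09 to 5.83%) at 100 to under 200 bp to 16.2% (9.28 to 26.7%) at 400 bp or more. After chr10:57693431-57695597, the widest input-only peaks were chr8:56201156-56203263 with 2108 bp, chr8:19799417-19801351 with 1935 bp, chr8:56205462-56207013 with 1552 bp and chr11:5068515-5069942 with 1428 bp. The 3 on chromosome 8 had scores of 56.7 to 82.3 and an NBS1 peak within 4 kb: 3603, 441 and 136 bases away, in that order. The one on chromosome 11 scored 212 and lay 131 kb from an NBS1 peak.

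**Figure D2:**
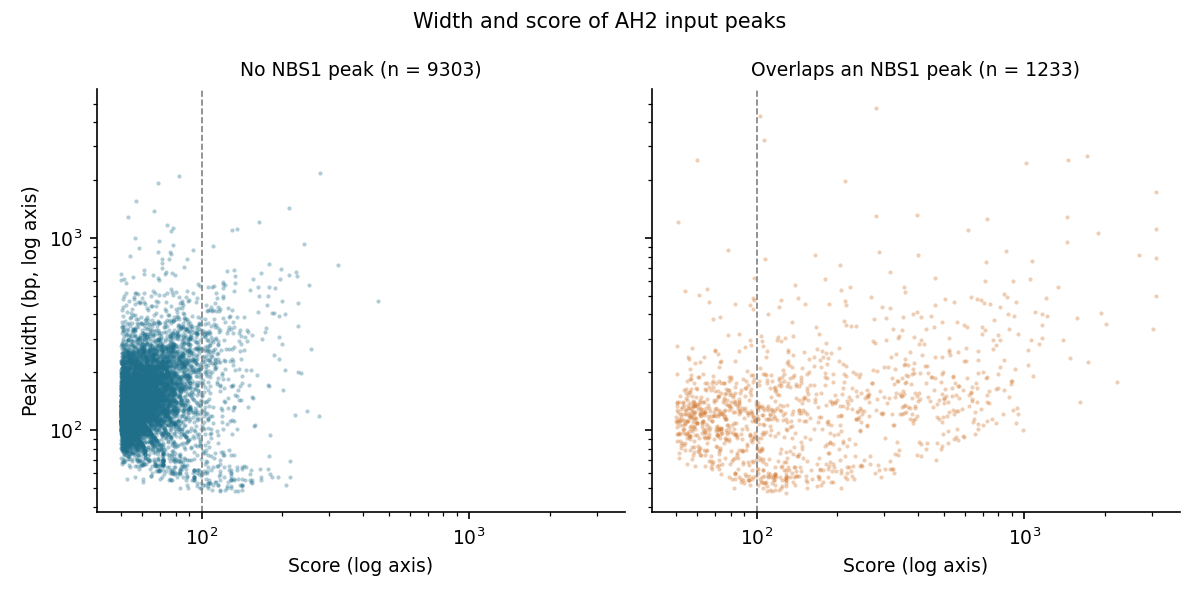
Width in bp (vertical, log axis) against deposited score (horizontal, log axis) of each kept AH2 input peak, with the 9303 input-only peaks on the left and the 1233 shared input peaks on the right. The dashed line marks a score of 100. Input-only peaks crowd below that line, and those above it spread to both narrow and wide peaks, while shared input peaks extend to a score of 3100.

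By whole chromosome, the density of input-only peaks varied within a 1.42-fold range. The 19 autosomes held between 3.37 and 4.79 input-only peaks per Mb, with a median over chromosomes of 3.89 per Mb. Shared input peaks ranged 2.57-fold, from 0.298 to 0.766 per Mb. Their counts were smaller, 37 to 100 per chromosome against 229 to 704, so counting error weighs more in their range. Chromosome 11 had the highest density of input-only peaks, 4.79 per Mb (4.40 to 5.20). It was followed by chromosome 17 with 4.64 per Mb (4.21 to 5.11) and by chromosome 8 with 4.50 per Mb (4.13 to 4.88). Chromosome 6 had the lowest, 3.37 per Mb (3.07 to 3.68), and chromosomes 3 and 18 both had 3.56 per Mb (3.27 to 3.87 and 3.17 to 3.99). The intervals of chromosomes 11 and 17 lay above those of chromosomes 3, 6 and 18, whereas most neighbours in this order had overlapping intervals. By share, which does not allow for chromosome length, the order turned among input-only peaks with a score of at least 100. Chromosome 6 held 7.33% (5.19 to 10.3%) of those and chromosome 11 held 4.16% (2.61 to 6.56%), with overlapping intervals. Of all input-only peaks they held 5.07% and 6.01%. Chromosome 3 held 9.05% (6.63 to 12.2%) of the strong ones (37 of 409), the largest share of any autosome, against 5.91% of all. Its interval overlapped those of chromosomes 2 and 8, which both held 7.82% (5.60 to 10.8%).

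Chromosome 7 stood at one end of the balance between the 2 kinds. It had 624 input-only and 44 shared input peaks, so 93.4% (91.3 to 95.1%) of its kept input peaks lacked an NBS1 peak. The share was lowest on chromosome 18 at 84.5% (80.4 to 87.9%) and chromosome 10 at 84.9% (81.6 to 87.6%). Chromosome 8 was high in both kinds, with the most shared input peaks per Mb of any autosome (0.766, 0.622 to 0.935) and 85.4% (82.6 to 87.9%) without an NBS1 peak.

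**Figure D3:**
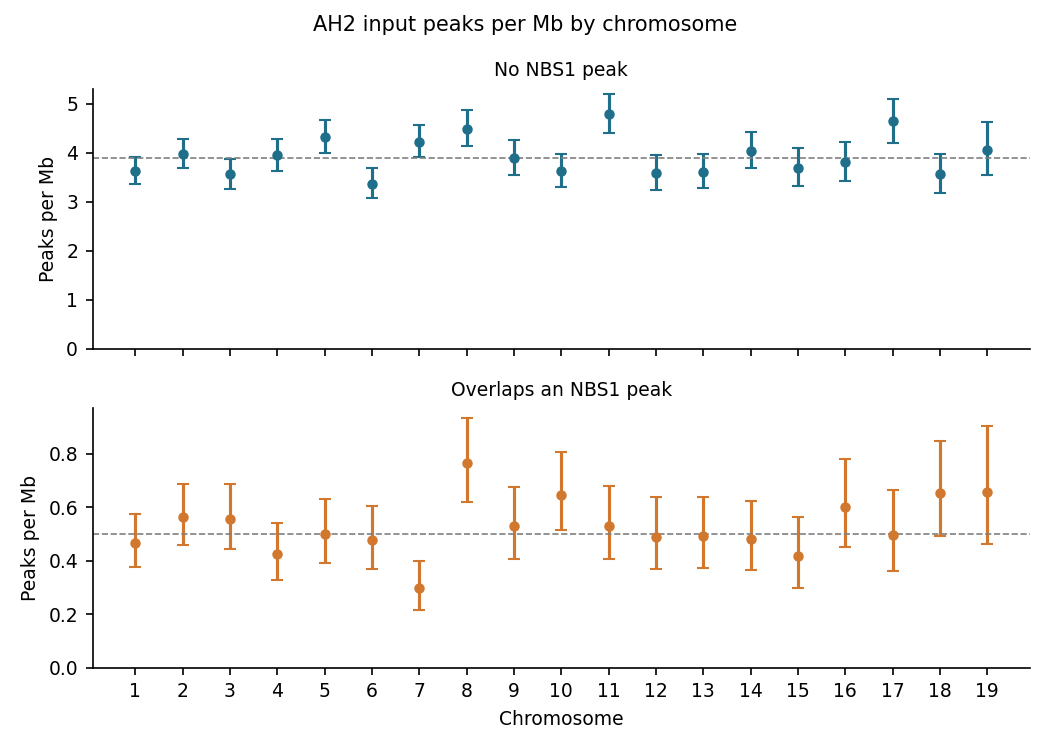
AH2 input peaks per Mb (vertical axes) on each autosome (horizontal axis), with input-only peaks above and shared input peaks below. Points are densities, whiskers exact 95% Poisson intervals and dashed lines the medians over chromosomes. Input-only peaks run from 3.37 per Mb on chromosome 6 to 4.79 on chromosome 11, and chromosome 7 has the fewest shared input peaks per Mb, 0.298.

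The share without an NBS1 peak varied little along the chromosome. In 10 equal classes of relative position, the share of kept input peaks without an NBS1 peak stayed between 87.1% (85.2 to 88.9%) and 90.2% (88.3 to 91.7%). The last 5 Mb that any list covers on each chromosome held 443 input-only peaks, 4.76% (4.35 to 5.21%), against 5.02% of all kept input peaks. Shared input peaks were there more often, 6.97% (5.68 to 8.53%), and the intervals were also apart at scores of at least 100, with 3.67% (2.23 to 5.96%) of input-only and 8.04% (6.30 to 10.2%) of shared input peaks. At scores under 100 the values were 4.81% (4.39 to 5.28%) and 5.34% (3.67 to 7.71%), with overlapping intervals. Intervals also overlapped over the last 10 Mb, which held 9.10% (8.54 to 9.71%) of all input-only and 10.9% (9.25 to 12.7%) of all shared input peaks.

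In bins of 1 Mb the counts of input-only peaks varied more than the chromosome means. Of 2359 bins, 116 held none, 4.92%, the median was 4 and 78 bins held 10 or more. The variance over bins, 7.09, was above the mean, 3.91. The fullest bins, with 22 each, were 47 to 48 Mb of chromosome 6 and 73 to 74 Mb of chromosome 8. They were followed by 5 to 6 Mb of chromosome 14 with 20, 72 to 73 Mb of chromosome 8 with 19 and 19 to 20 Mb of chromosome 8 with 17. These bins also held NBS1 peaks beside the input-only peaks: 6 of AH2 NBS1 and 4 of R2K.Artm NBS1 in the bin of chromosome 6, 9 and 7 in that from 73 Mb of chromosome 8, 3 and 1 on chromosome 14, 5 and 5 from 72 Mb, and 16 and 6 from 19 Mb of chromosome 8. These 5 counts were not compared with those of other bins. The whole AH2 NBS1 list held 5201 peaks and the R2K.Artm NBS1 list 3192, left-out positions included. No AH2 NBS1 peak lay in 19 of the 78 bins with 10 or more input-only peaks. Of these 78 fullest bins, 12 were on chromosome 8, which made up 127 of the 2368 Mb counted and held 6.12% of all input-only peaks.

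The longest stretch between neighbouring input-only peaks was 7.11 Mb, at chr7:39325909-46439610. It held no input peak of any kind, no AH2 NBS1 peak and 1 R2K.Artm NBS1 peak. The next longest was 3.15 Mb at chr4:75378829-78526947, with 3 shared input and 8 AH2 NBS1 peaks. The 3 after it were chr11:35936240-38718403, chr8:20037397-22813192 and chr18:26811153-29507731, of 2.78, 2.78 and 2.70 Mb, with 5, 1 and 5 AH2 NBS1 peaks. The stretch on chromosome 7 was thus the longest by more than 3 Mb and the only one of these 5 without an AH2 NBS1 peak. Assembly gaps and the share of sequence that reads can be placed in were not measured here. Stretches across the 2 immunoglobulin windows were not counted.

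Most input-only peaks had no close neighbour, as was so for kept input peaks in general. Another kept input peak was within 10 kb of 1183 input-only peaks, 12.7% (12.1 to 13.4%), against 13.7% of all kept input peaks. For shared input peaks it was 21.1% (18.9 to 23.5%). Within 1 kb the shares were 3.76% (3.39 to 4.17%) and 13.5% (11.7 to 15.5%). At scores under 100 they were 12.5% (11.8 to 13.2%) and 18.9% (15.7 to 22.6%) within 10 kb, with intervals apart. At scores of at least 100 they were 17.4% (upper bound 21.3%) and 22.5% (lower bound 19.7%), so the intervals overlapped. Within 100 kb another kept input peak was found for 62.8% (61.8 to 63.8%) of input-only and 62.7% (59.96 to 65.3%) of shared input peaks, with overlapping intervals. The contrast was absent when only input-only neighbours were counted. Another input-only peak lay within 10 kb of 11.7% (11.1 to 12.4%) of input-only and 11.3% (9.63 to 13.2%) of shared input peaks. Within 1 kb these shares were 3.41% (3.06 to 3.80%) and 3.57% (2.67 to 4.76%).

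Joined wherever the next lay under 10 kb away, the 9303 peaks gave 8212 single peaks, 445 pairs and 53 runs of 3 or more, which together held 201 peaks, 2.16%. Of these runs, 13 were on chromosome 8, which held 6.12% of all input-only peaks. Between their first and last base 42 of the 53 runs held no NBS1 peak of any list. The choice of members partly sets this count, and 38 of the runs held only 3 peaks. The share of other stretches of like length without an NBS1 peak was not counted, so the 42 are a description only. The fullest runs were few and distinct. On chromosome 6, chr6:47601616-47636646 held 12 input-only peaks in 35.03 kb and chr6:47689621-47727286 held 10 in 37.7 kb, separated by 53.0 kb. They made up all 22 peaks of the fullest bin. The third, chr7:67003976-67039905, held 9 in 35.9 kb, and the fourth, chr5:33066602-33081113, held 8 in 14.5 kb. Of 2 runs with 6 peaks, the first by position was chr8:57974990-57998889.

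The peaks of the 2 runs on chromosome 6 were wide, with median widths of 569 and 550 bp against 134 bp for all input-only peaks. Their scores ran from 50.0 to 179 and from 50.8 to 130. The runs shared an arrangement, which was noticed after their values were seen. From the second to the sixth peak, the steps between centres were 3.97, 0.609, 3.71 and 4.92 kb in the first run and 4.00, 0.629, 3.74 and 4.85 kb in the second. The centres of the second and sixth peak were 13.2 kb apart in both, and these distances differed by 10.5 bases. The 4 peaks that start with the second were 1108, 465, 604 and 496 bp wide in the first run and 1095, 473, 606 and 465 bp wide in the second, so no width in these 4 pairs differed by more than 31 bp. The sixth peaks were less alike in width, 590 and 484 bp. Scores were less alike: the second peaks had 136 and 130, but the sixth had 121 and 50.8. The step from the first to the second peak also differed, 2.94 kb against 4.00 kb, as did the steps after the sixth. Each stretch also held 2 AH2 NBS1 peaks and 1 R2K.Artm NBS1 peak, which lay between input-only peaks or on a shared input peak. Of the subtracted list, the second stretch held 1 interval and the first 0.

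The run on chromosome 7 had no NBS1 peak of any list, and its 9 peaks were its only input peaks. Its scores were low, from 51.2 to 77.2, and its widths ran from 254 to 967 bp. Of its 8 steps between neighbouring centres, 4 were between 2.5 and 2.8 kb, a band not set in advance, and the longest was 7.48 kb. A regular spacing was not tested. The run on chromosome 5 differed: its peaks were narrower, 149 to 333 bp, its highest score was 194, and the stretch held 4 AH2 NBS1 and 2 R2K.Artm NBS1 peaks. The run of 6 at 57.97 Mb of chromosome 8 had scores of 53.8 to 96.1 beside 2 AH2 NBS1 peaks and 1 R2K.Artm NBS1 peak.

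**Figure D4:**
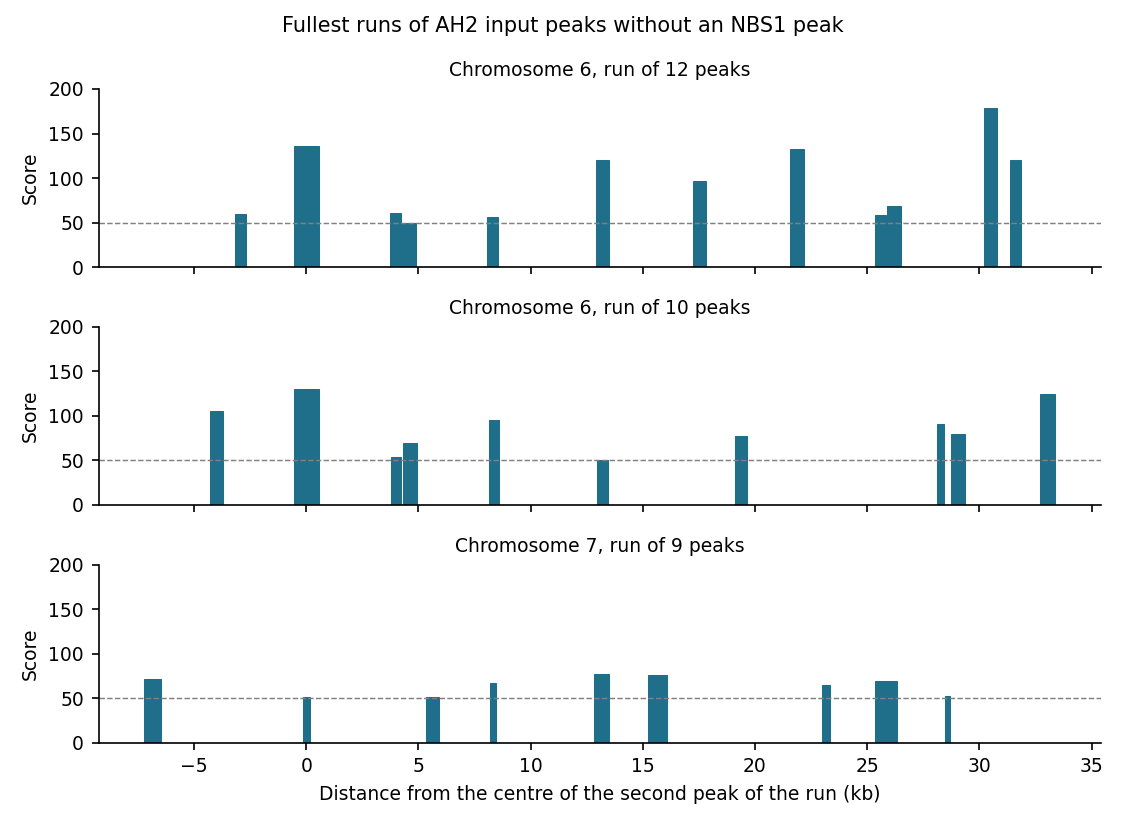
The 3 fullest runs of input-only peaks, drawn to scale by distance in kb from the centre of the second peak of each run (horizontal axis). Each bar is 1 peak, its width the peak's width and its height the deposited score (vertical axis), and the dashed line is the lowest score in the list, 50. From the second to the sixth peak the 2 runs of chromosome 6 have nearly the same spacing, with the sixth 13.2 kb from the second in both.

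NBS1 peaks were also rarer around input-only peaks than around shared input peaks. An NBS1 peak that did not overlap lay within 10 kb of 577 input-only peaks, 6.20% (5.73 to 6.71%), against 7.45% of all kept input peaks. For shared input peaks, not counting those they overlapped, it was 16.9% (14.9 to 19.1%). The choice of members used overlap itself, and distances just beyond it are not independent of it, so these are descriptions. In scores under 100 the values were 5.93% (5.45 to 6.44%) and 14.8% (11.9 to 18.2%). Among input-only peaks with a score of at least 100 it was 12.2% (9.40 to 15.8%), above that of the weaker ones. Shared input peaks with such a score had 18.2% (15.6 to 21.2%), an interval that overlapped slightly with that of the input-only peaks.

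The 2 lines gave the same order, but they are not separate evidence. The choice of members used both lists, and 771 of the 1233 shared input peaks overlapped both. A peak of 1 list also counted as nearby where the input peak overlapped only the other list. At chr16:93992790-93993226, which overlapped an AH2 NBS1 peak, the R2K.Artm NBS1 peak lay 0.016 kb away. AH2 NBS1 peaks lay within 10 kb of 4.69% (4.28 to 5.14%) of input-only and 14.03% (12.2 to 16.1%) of shared input peaks, and R2K.Artm NBS1 peaks, from a shorter list, within 10 kb of 2.72% (2.41 to 3.07%) and 10.6% (9.03 to 12.5%). Within 100 kb the contrast narrowed, to 40.5% (39.5 to 41.5%) of input-only against 47.9% (45.2 to 50.7%) of shared input peaks for any NBS1 list. At scores of at least 100 these shares were 43.5% (38.8 to 48.4%) and 45.4% (41.9 to 49.0%), with overlapping intervals. At scores under 100 they were 40.4% (39.3 to 41.4%) and 51.7% (47.3 to 56.2%), with intervals apart. The median distance from an input-only peak to the nearest NBS1 peak was 136 kb, and the middle 50% ran from 54.2 to 275 kb.

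**Figure D5:**
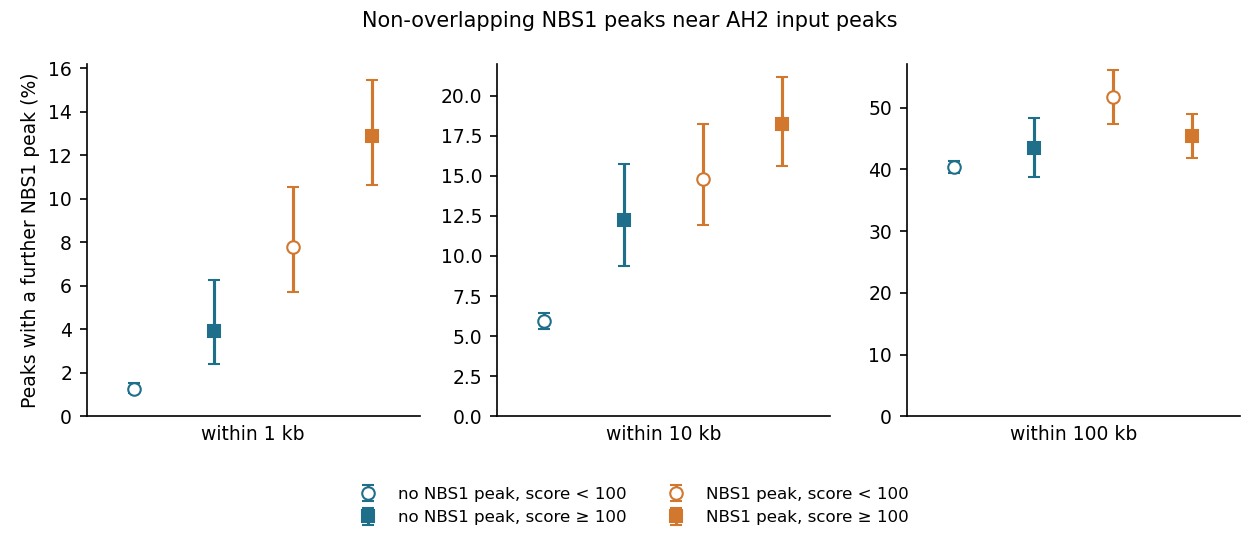
Percent of kept AH2 input peaks with a non-overlapping NBS1 peak of any list within 1, 10 and 100 kb (panels, each with its own vertical axis). Input-only peaks are blue and shared input peaks orange, open circles are scores under 100 and squares scores of at least 100, and whiskers are 95% Wilson intervals. Within 10 kb the shares are 5.93%, 12.2%, 14.8% and 18.2% from left to right.

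Outside Igh and Igk, which the choice of members left out, 4 antigen receptor windows were examined, rounded to whole megabases. Their positions come from general knowledge of mm9 and were not checked against an annotation, so they include flanking sequence and their counts describe the windows, not the genes. The window taken for the T cell receptor alpha and delta genes, Tcra/Tcrd, at 52 to 55 Mb of chromosome 14, held 29 input-only and 0 shared input peaks. This is 9.67 input-only peaks per Mb (6.47 to 13.9), against 4.04 per Mb on the whole chromosome. Shared input peaks were sparse on the whole chromosome, 0.483 per Mb, so their absence from 3 Mb says little. Most of the 29 input-only peaks were weak, with a median score of 54.6. The strongest were chr14:54873268-54873600 with 139, chr14:54295772-54295973 with 109 and chr14:52924260-52924503 with 83.4. The first had an AH2 NBS1 peak 530 bases away. The last had an AH2 NBS1 peak 0.537 kb and an R2K.Artm NBS1 peak 0.602 kb away.

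In the other 3 windows the interval of the density included that of the whole chromosome. The lambda light chain window, Igl, at 18 to 20 Mb of chromosome 16, held 12 input-only peaks, 6 per Mb (3.10 to 10.5) against 3.81 on the chromosome, with scores of 51.5 to 92.0. The strongest was chr16:19403453-19403632, and 1 shared input peak lay in the window. The T cell receptor beta window, Tcrb, at 40 to 42 Mb of chromosome 6, held 8, which is 4 per Mb (1.73 to 7.88) against 3.37, and no shared input peak. Chromosome 6 as a whole held 0.478 shared input peaks per Mb, so their absence from 2 Mb says little. The strongest input-only peak of the Tcrb window was chr6:41074027-41074147 with a score of 96.3. The T cell receptor gamma window, Tcrg, at 19 to 20 Mb of chromosome 13, held 2 input-only peaks, chr13:19357071-19357217 (score 50.4) and chr13:19407107-19407257 (score 54.5), beside 2 shared input peaks. Its density of 2 per Mb (0.242 to 7.22) stood against 3.62 on the chromosome.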

How the data were processed

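The 4 peak lists were analysed as deposited. Each peak carries a deposited score that the authors' caller wrote; the file headers do not define it, and it was used only within the input list. MACS 1.4.2, Bowtie and the build mm9 are named in the submitters' processing notes; the control library of each call is not given in the sources used here. Joins ran on scipy 1.17.1, pandas 2.3.3 and numpy 2.4.6 under Python 3.11.15, and an overlap of 1 base counted as shared. Positions are 1-based. The joins were tested on simulated data: 2000 intervals, 604 overlaps found, as by direct search. Density was counted from 5 Mb to the last base any list covers, without the immunoglobulin windows. Named peaks are the 10 strongest, the 5 widest, 5 on each side of the rule, the 5 fullest runs and bins, the 5 longest stretches, and peaks in 4 receptor windows, of which the strongest are printed. Members and lists were chosen with earlier results of these data known. Sequence and gene annotation were not used here, since no mm9 sequence was at hand, so no sequence is printed. Comparisons within score classes and of width within them were added after seeing the data. Shared input peaks had the higher median score within both classes, under 100 and at least 100, so these comparisons do not hold score constant. Alternatives were 50% coverage, a distance of 1 kb, score limits, other positions, other lists and other distances.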

Additional observations from a re-analysis of the deposited data

How the results depend on the processing

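No paired analysis was possible because there was a single library in every group, and no library could be dropped. Across 30 results, 44 of 76 alternative values stayed within the reported interval. The share without an NBS1 peak (88.3%) was 89.1% under 50% coverage, 87.1% within 1 kb, 85.9% at all positions and 89.7% against the AH2 lists only. It was 35.4% at scores of at least 100 and, in a comparison chosen after seeing the data, 94.8% at scores under 100, so it rested on the score limit. Another input-only peak lay within 10 kb of 11.7%, within 100 kb of 59.1%, within 10 kb of 3.18% among scores of at least 100, which leaves fewer neighbours by construction, and of 11.0% without chromosome 8 (also added later). The last 10 Mb held 9.10%, against 10.9% of shared input peaks with overlapping intervals, and the last 5 Mb held 3.67% of those input-only peaks scoring at least 100. An NBS1 peak lay within 1 kb of 1.39%, within 100 kb of 40.5%, and within 10 kb of 4.69% for AH2 NBS1 alone and 2.72% for R2K.Artm NBS1 alone. The median width was 196 bp at scores of at least 100. There chromosome 6 held 7.33% in place of 5.07% and chromosome 11 held 4.16% in place of 6.01%, so their order by share turned, with overlapping intervals. Chromosome 3 held the most of these strong peaks, 9.05% in place of 5.91%. Of the 30 strong peaks on chromosome 6, 8 were in its 2 fullest runs. The sequence alternative was not run. For all other changes the cause was not tested. A region without a called NBS1 peak is not shown to lack NBS1, and a deeper library can call more peaks.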
